A study of Pyrus pyrifolia with 6 samples.

Results

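Germin-like protein (GLP) genes were examined in the fruit skin of sand pear (*Pyrus pyrifolia*). The 4 members are the genes that the study names as *GLP* genes, and they were taken by gene ID from a table of 42966 genes. They are named here by the subfamily and member number of their annotation, as *GLP1-17* (gene ID ‘103933808’), *GLP1-11* (gene ID ‘108865350’), *GLP1-13* (gene ID ‘103941350’) and *GLP3-2* (gene ID ‘103963620’). The study picked them as raised in russet skin, in transcripts of the same libraries and in protein. The number of transcript increases among them is therefore no independent evidence of a direction. Russet skin came from ‘Niitaka’ and green skin from its bud mutant line ‘Suisho’, which arose from a mutated shoot and shares most of its genetic background. Trees of both lines grew in an orchard, and skin was taken from fruits at 80 d. Each sample combined 10 fruits, and each line gave 3 libraries, labelled A1 to A3 (russet) and B1 to B3 (green). Since each skin type is represented by 1 line, a difference between the skins cannot be told apart from any other difference between ‘Niitaka’ and ‘Suisho’. Transcript levels are given as FPKM, i.e., mapped fragments scaled to the exon length of the gene and to the depth of the library, so that genes of different length can be compared.

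GLPs are secreted proteins of the cell wall that belong to the cupin superfamily, and they are named after germin, an oxalate oxidase of germinating cereal grains. Germin releases hydrogen peroxide from oxalate, and some GLPs of other plants act as superoxide dismutases, which also yield hydrogen peroxide. Hydrogen peroxide serves in the cross-linking of wall polymers and as a signal in defense, and *GLP* genes of cereals are known for their response to pathogens. Russet skin is covered by a periderm of suberized cork cells, whereas a waxy cuticle covers green skin.

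Of the 4 genes, 3 are annotated to subfamily 1. *GLP1-17* lies on the plus strand of scaffold NW_008988656.1 from 204679 to 205882, with 996 bp of exons in a span of 1204 bp. *GLP1-11* lies on the plus strand of NW_008988194.1 from 79003 to 80244, with 900 bp of exons. *GLP1-13* lies on the plus strand of NW_008989305.1 from 895 to 1926, with 831 bp of exons. In these genes the span exceeded the exons by 201 to 342 bp, which is the summed intron length. *GLP3-2*, the only member of subfamily 3, lies on the plus strand of NW_008988289.1 from 254128 to 255038, and its exon length of 911 bp equaled its span.

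The libraries rested on 31381552 to 42729578 reads, and 1 read on 1000 bp was worth 0.0234 to 0.0319 FPKM. Genes that the study reports as changed in these same libraries separated the lines, so they are no independent check of the skins. The cutin gene *CYP86A22* had 0.979 to 2.11 FPKM in russet skin against 85.4 to 114 FPKM in green skin, whereas a suberin feruloyl transferase gene had 41.6 to 78.9 FPKM in russet skin against 0.704 to 1.22 FPKM in green skin. Markers of other cells that the skin samples could hold differed less. A sieve element occlusion gene of the phloem had 0.826 to 1.37 FPKM in russet skin against 0.458 to 0.764 FPKM in green skin and was not called (adjusted p = 0.171, limma). Both chlorophyll a-b binding protein genes that were examined, markers of green tissue, had 175 to 265 FPKM in russet skin against 111 to 195 FPKM in green skin. Only 1 of these was called higher in russet skin (adjusted p = 0.0228, limma), and that call was lost when A1, A2, A3, B2 or B3 was left out (adjusted p up to 0.0775). The part of these cells in the *GLP* levels was not tested.

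*GLP1-17* was abundant in russet skin and scarce in green skin. It had 295 FPKM in A1, 150 FPKM in A2 and 125 FPKM in A3. In green skin it had 3.11 FPKM in B1, 2.47 FPKM in B2 and 1.73 FPKM in B3. Every russet library thus lay far above every green library, and the lowest russet value was 40.3 times the highest green value. Means were 190 ± 91.9 FPKM in russet skin against 2.43 ± 0.690 FPKM in green skin (SD, n = 3 each), a ratio of 78.0. On the log2(FPKM + 0.1) scale the gene was higher in russet skin by 6.16 (SE 0.35, 95% confidence interval 5.34 to 6.98, adjusted p = 6.52e-05, limma). These levels rested on 21554 reads in russet skin and 270 reads in green skin. In bulk tissue, a larger share of cells that express the gene and more RNA per cell cannot be told apart.

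**Figure D1:**
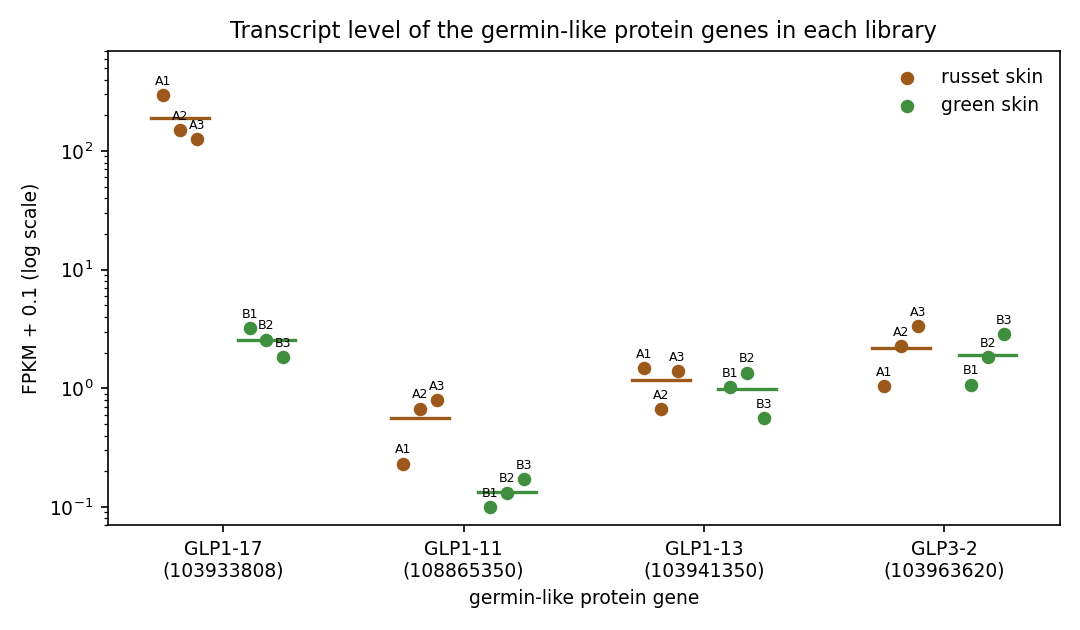
FPKM + 0.1 on a log axis for each germin-like protein gene, with 1 point per library (A1 to A3 russet, B1 to B3 green) and a bar at the mean of each line. The russet libraries of *GLP1-17* sit between 125 and 295 FPKM and its green libraries between 1.73 and 3.11 FPKM, whereas the skins overlap for *GLP1-13* and *GLP3-2*.

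Of the 30161 genes tested, 15.3% had an adjusted p under 0.05, and 8.05% were higher in russet skin. For all 4 *GLP* genes the study states a transcript increase, and its methods name DESeq as the test. Here, with limma on FPKM, only *GLP1-17* passed. Its log2 difference ranked 38th from the top of all genes tested. In green skin 19745 genes of the table had a higher mean FPKM, whereas in russet skin 466 genes did and 98.9% of all genes were lower. Among the 1097 genes that averaged 100 FPKM or more in russet skin, 71 were called higher there. Of these, only 103957865 had a larger log2 difference than *GLP1-17*, at 6.31 (adjusted p = 6.92e-05, limma), with 179 FPKM in russet skin against 2.26 FPKM in green skin. That gene has no name in the sources used here and was picked out after its values were seen. The set of 1097 genes was drawn by the russet level, through which *GLP1-17* entered it. Its place in that set is therefore only a description.

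The russet libraries were not alike in the level of *GLP1-17*. A1 was 2.15 times the mean of A2 and A3, and the coefficient of variation was 48.4% in russet skin and 28.4% in green skin. Such a spread was wide beside abundant genes in general. Across these 1097 abundant genes the median coefficient of variation was 13.2%, and 96 of them varied more than *GLP1-17*. Only 71 of them were called higher in russet skin, so the median mainly describes genes without that change. The spread was not found in *GLP1-17* alone. Gene 103941351, described below, had a coefficient of variation of 46.3% in russet skin. The suberin feruloyl transferase gene had 78.9 FPKM in A1, 41.6 FPKM in A2 and 43.8 FPKM in A3. A1 was the highest russet library in 43.0% of the 2427 genes called higher in russet skin, A2 in 20.8% and A3 in 36.2%. Without A1 the difference of *GLP1-17* was 5.79 in log2 units (SE 0.26, adjusted p = 0.000282, limma).

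**Figure D2:**
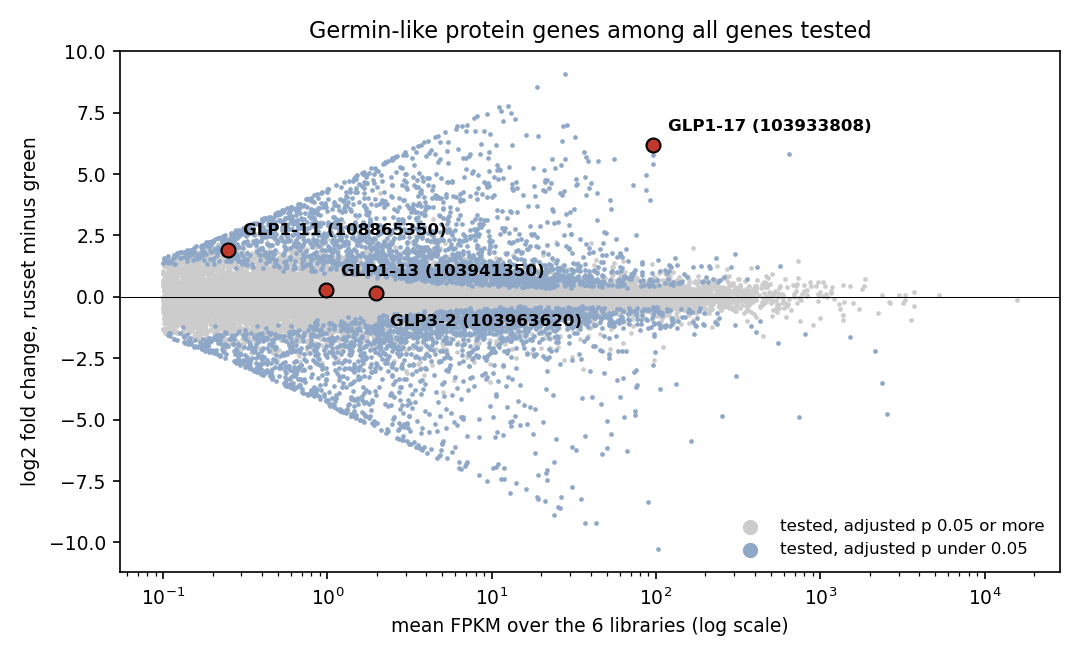
Log2 fold change (russet minus green) against mean FPKM over the 6 libraries on a log axis, with 1 point per tested gene and the germin-like protein genes in red. *GLP1-17* lies near 96.2 FPKM at 6.16, above nearly all genes of its level, whereas *GLP1-13* and *GLP3-2* lie within the grey band of genes that were not called.

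*GLP1-11* was scarce in both skins, and its higher russet level did not pass the test. It had 0.131 FPKM in A1, 0.572 FPKM in A2 and 0.690 FPKM in A3, from 4, 22 and 26 reads. In green skin it had no read in B1, 0.0314 FPKM from 1 read in B2 and 0.0708 FPKM from 2 reads in B3. The absence of reads in B1 allows up to 0.0800 FPKM there, the value of 3 reads, which is a one-sided limit. All russet libraries lay above the green libraries, as did those of 17.2% of the genes tested, but A1 stood closer to B3 than to A2. The two-sided 95% counting intervals of A1 (1.09 to 10.2 reads) and B3 (0.242 to 7.22 reads) overlap. Read sums relative to depth were 15.9 times as high in russet skin, with a wide 95% counting interval of 5.14 to 79.4. The log2 difference was 1.92 (SE 0.54, 95% confidence interval 0.65 to 3.20, adjusted p = 0.0566, limma). With a mean of 0.034 FPKM in green skin, the gene reached the filter of 0.1 FPKM over the 6 libraries only through its russet level. Without that filter it did not pass either (adjusted p = 0.0511, limma).

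The call of *GLP1-11* turned on single choices. It passed with the library number as a replicate block, i.e., with A1 paired to B1, A2 to B2 and A3 to B3 (adjusted p = 0.0299, limma). It also passed without A1 (log2 difference 2.48, SE 0.39, adjusted p = 0.0134, limma), but without any other single library the adjusted p was 0.0890 to 0.158. Other settings gave an adjusted p up to 0.0978. The size depended on the pseudocount, with a log2 difference of 0.48 at a pseudocount of 1 and of 3.58 at 0.01.

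*GLP1-13* did not differ detectably. It had 1.38 FPKM in A1, 0.563 FPKM in A2 and 1.29 FPKM in A3, against 0.924 FPKM in B1, 1.26 FPKM in B2 and 0.460 FPKM in B3. The skins overlapped, and the order of the libraries followed neither line. Means were 1.08 ± 0.450 FPKM in russet skin against 0.881 ± 0.401 FPKM in green skin (SD, n = 3 each). The log2 difference was 0.27 (SE 0.46, 95% confidence interval -0.81 to 1.35, adjusted p = 0.763, limma). This interval leaves room for a change of more than 1 log2 unit towards russet skin, so that a moderate difference cannot be told from none at 12 to 45 reads per library.

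*GLP3-2* was the second most abundant of the 4 genes and did not differ detectably either. It had 0.938 FPKM in A1, 2.16 FPKM in A2 and 3.23 FPKM in A3, against 0.974 FPKM in B1, 1.74 FPKM in B2 and 2.76 FPKM in B3. The ranges of the lines nearly coincided, and libraries of the same number were closest to each other. Means were 2.11 ± 1.14 FPKM in russet skin against 1.82 ± 0.898 FPKM in green skin (SD, n = 3 each). The log2 difference was 0.15 (SE 0.52, 95% confidence interval -1.07 to 1.38, adjusted p = 0.889, limma), from 29 to 123 reads per library. With the library number as a replicate block, the same difference had a smaller error and was not called either (SE 0.21, adjusted p = 0.658, limma).

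**Figure D3:**
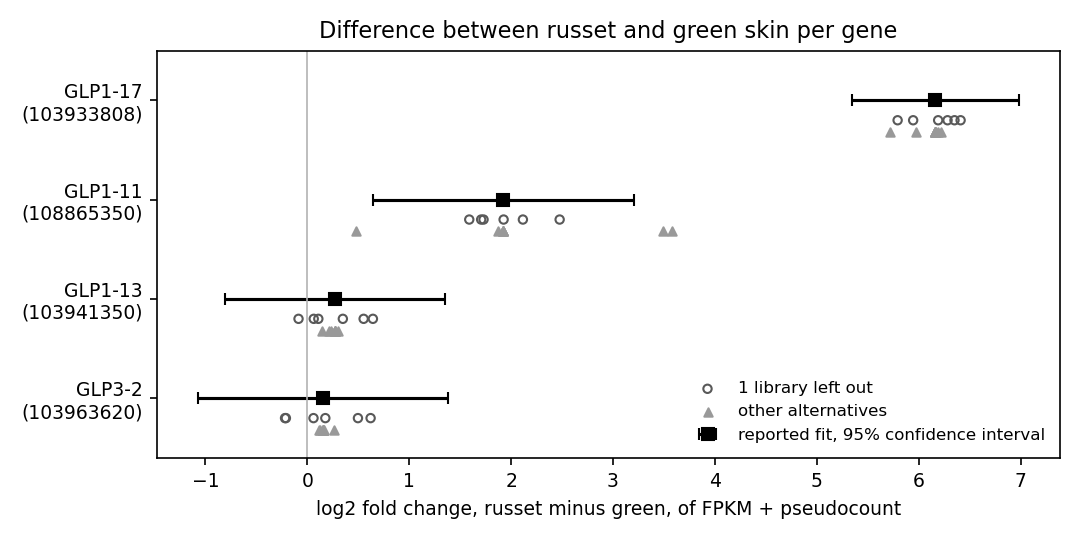
Log2 fold change (russet minus green) of each germin-like protein gene with its 95% confidence interval (black squares), beside the values with 1 library left out (circles) and under the other alternatives (grey triangles). All values of *GLP1-17* lie between 5.71 and 6.41, those of *GLP1-11* lie between 0.48 and 3.58, and those of *GLP1-13* and *GLP3-2* lie near 0 on both sides.

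In green skin the order of the 4 levels was not fixed. *GLP1-17* had the highest mean, but it did not stand apart from *GLP3-2* beyond the spread of the libraries, since its FPKM was 3.19 times as high in B1, 1.42 times as high in B2 and 0.625 times as high in B3. *GLP1-13* came next without standing apart from *GLP3-2*, which it nearly equaled in B1, and *GLP1-11* was lowest in each green library. In russet skin the order of the 3 scarce genes was not fixed either, since *GLP1-13* lay above *GLP3-2* in A1 and *GLP1-11* lay just above *GLP1-13* in A2. There the FPKM of *GLP1-17* was 38.8 to 314 times that of *GLP3-2*. *GLP1-17* held 96.0% to 99.2% of the summed FPKM of the 4 genes in russet libraries and 34.4% to 62.1% in green libraries. The other 3 genes together had 3.65 ± 1.41 FPKM in russet skin against 2.74 ± 0.741 FPKM in green skin (SD, n = 3 each), with overlapping libraries.

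The log2 differences of the 4 genes between the skins are set side by side as a description, since *GLP1-17* was singled out for its change and the smallest p that exact permutation of 3 and 3 libraries allows is 0.10. The log2 difference of *GLP1-17* exceeded that of *GLP1-13* by 5.89 and that of *GLP3-2* by 6.01, and the ratio of *GLP1-17* to either gene was higher in every russet library than in every green library. It exceeded that of *GLP1-11* by 4.24, but this value depended on the pseudocount, with 5.23 at a pseudocount of 1, 2.63 at 0.01, and 2.70 with limma voom on the recovered reads. With no read of *GLP1-11* in B1, the ratio has no finite value there, and the counting interval of its read ratio between the skins (5.14 to 79.4) includes the 73.1 of *GLP1-17*. On that measure the changes of both genes cannot be told apart. The median log2 difference of the 4 genes was 1.10, beside 0.0032 over all genes tested. Since the study picked the 4 genes as raised in russet skin, this gap is no evidence of a shift of the family. The median lies between the 0.27 of *GLP1-13* and the 1.92 of *GLP1-11* and describes no single gene.

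*GLP1-17* has a counterpart of the same dimensions, for which no name was at hand. Gene 103941351, the neighbor of *GLP1-13* on NW_008989305.1 from 29505 to 30708, also has 996 bp of exons in a span of 1204 bp. Of the 36904 genes whose span exceeds the exon length, 4.75% share both values with another gene. Its FPKM was 287 in A1, 151 in A2 and 125 in A3, against 3.47 in B1, 3.43 in B2 and 2.56 in B3. These values followed those of *GLP1-17* closely, and the log2 difference between the skins was 5.77 (SE 0.31, adjusted p = 5.85e-05, limma). The means of both genes over the 6 libraries differed by 0.0123 in log2 units. This was the smallest gap among 38 pairs of equal exon length and span on different scaffolds in which both genes reached 1 FPKM, where the median gap was 1.40. The pair was picked out after its values were seen.

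The ratio within the pair was nearer to 1 in the russet libraries than in the green libraries, which is given as a description of a pair picked for its values. In russet skin the FPKM of 103941351 was 0.972, 1.01 and 1.00 times that of *GLP1-17* in A1, A2 and A3. In green skin it was 1.12, 1.39 and 1.48 times that of *GLP1-17* in B1, B2 and B3. Read sums of 21326 and 21554 in russet skin gave a ratio of 0.989 (exact binomial 95% interval 0.971 to 1.01), whereas 345 and 270 reads in green skin gave a ratio of 1.28 (1.09 to 1.50). Read numbers of the genes differed in each library, so the values are not 1 count entered for both. Whether reads of one gene were also placed on the other was not tested, and the sources used here do not state how reads with several matches were counted, so the level of each gene alone is uncertain. With both genes summed, the levels were 377 ± 179 FPKM in russet skin against 5.59 ± 1.18 FPKM in green skin (SD, n = 3 each), and the log2 difference was 5.98 (SE 0.32, adjusted p = 5.88e-05, limma).

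**Figure D4:**
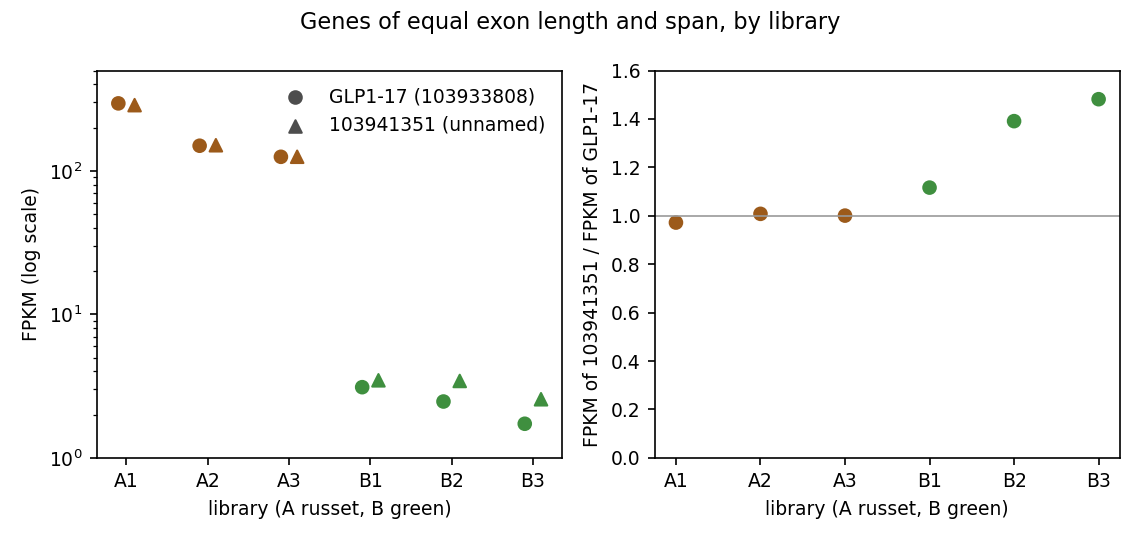
FPKM of *GLP1-17* (circles) and 103941351 (triangles) in each library on a log axis, and the ratio of 103941351 to *GLP1-17*, with russet libraries in brown and green libraries in green. The ratio lies between 0.972 and 1.01 in russet libraries and between 1.12 and 1.48 in green libraries.

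The surroundings of the pair were alike as well. The scaffold of *GLP1-17* holds 23 genes and that of 103941351 holds 9, and 5 genes of each, the pair included, occur in the same order on the same strand with spans that differ by no more than 2%. The levels of the flanking pairs were not all alike. Gene 103933810 had 6.63 FPKM in russet skin against 7.28 FPKM in green skin, whereas its counterpart 103941354 had 45.7 FPKM in russet skin against 43.3 FPKM in green skin. No flanking gene that was tested was called. On the scaffold of *GLP1-17* it was the only call among 12 genes tested, and on the other scaffold 103941351 was the only call among 8. With 15.3% of all tested genes called, such counts do not set these scaffolds apart from other genes.

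**Figure D5:**
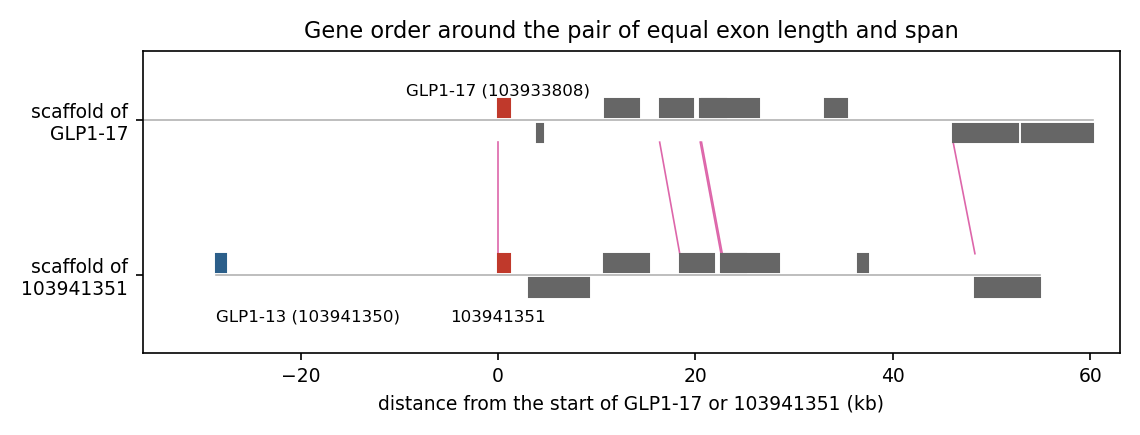
Genes as boxes (plus strand above the line, minus strand below) around *GLP1-17* and 103941351 (red) by distance in kb from the start of each, with *GLP1-13* in blue and lines joining genes of the same order and strand with spans within 2%. The joined genes keep their order downstream, and *GLP1-13* lies 27579 bp upstream of 103941351 with no gene between them.

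The genes next to the members did not share the difference of *GLP1-17*, apart from 103941351 itself, which lies beside the scarce *GLP1-13*. To the left of *GLP1-17*, 103933806 had 62.9 ± 7.30 FPKM in russet skin against 62.5 ± 3.51 FPKM in green skin (SD, n = 3 each; adjusted p = 0.987, limma). To its right, 103933817 had no read in any library. Next to *GLP1-11*, 103957763 had no read, and 103957791 had 0 reads in russet skin and 25 reads in green skin, below the filter on low values. Beside *GLP3-2*, genes 103963619 and 103963622 were not called (adjusted p = 0.619 and 0.699, limma). Gene 103963622 begins 288 bp to the right of *GLP3-2* on the opposite strand and was far more abundant, with 70.6 ± 7.04 FPKM in russet skin against 66.0 ± 7.65 FPKM in green skin (SD, n = 3 each). *GLP3-2* also shares its exon length and span with another gene, 103953139, but so do 86.3% of the genes whose exon length equals their span. That gene was not called either (adjusted p = 0.613, limma).

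Among the 5 genes whose pattern was most like that of *GLP1-17*, those with a name were triterpenoid and fatty acid genes. Names were at hand only from the study's tables of chosen gene families, so no theme can be read from them. Likeness was the Pearson correlation of log2(FPKM + 0.1) over the 6 libraries among 23837 other genes averaging 1 FPKM or more, and it is a description without a test. With lines this far apart, many genes with a large difference scored high, and 181 genes had r above 0.99. The nearest was 103936042 (r = 0.9999), a beta-amyrin synthase-like gene, of the enzyme family that forms the ring system of triterpenoids. It had 23.4 ± 13.7 FPKM in russet skin against 0.0538 ± 0.0526 FPKM in green skin (SD, n = 3 each). Another beta-amyrin synthase-like gene, 103935920 (r = 0.9996), followed with 169 ± 62.3 FPKM in russet skin against 5.31 ± 1.59 FPKM in green skin. The 3-ketoacyl-CoA synthase 4-like gene 103966995 (r = 0.9995), of the family that elongates fatty acids, had 29.5 ± 11.2 FPKM in russet skin against 1.50 ± 0.217 FPKM in green skin. Gene 103941351 was the fourth, and 103957499, without a name here, was the fifth. All 5 had the same order of the 6 libraries as *GLP1-17*, with A1 highest and B3 lowest, an order found in 209 of the genes compared.

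Genes of jasmonate action were set beside the *GLP* genes because the study relates the family to jasmonate-dependent defense. Names were at hand for 2 genes of jasmonic acid-amido synthetase (JAR1), the enzyme that joins jasmonic acid to isoleucine to form the active hormone. The first had 73.1, 56.7 and 44.9 FPKM in A1, A2 and A3, against 38.9, 28.0 and 22.2 FPKM in B1, B2 and B3. It was higher in every russet library and passed the test (log2 difference 0.98, SE 0.25, adjusted p = 0.0401, limma). That call was lost without A1, A2, B2 or B3 (log2 difference 0.79 to 0.98, adjusted p 0.102 to 0.122, limma), whereas the log2 difference had a smaller error with the replicate block (SE 0.085, adjusted p = 0.00159, limma). The JAR1 gene annotated as isoform X1 had 45.7 to 62.2 FPKM in russet skin against 46.8 to 49.7 FPKM in green skin and was not called (adjusted p = 0.728, limma).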

How the data were processed

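Fruit skin RNA of ‘Niitaka’ (russet) and ‘Suisho’ (green) was sequenced in 3 libraries per line. The authors mapped reads with HISAT2 2.0.4 on the genome of Chinese white pear, used Cufflinks 2.1.1 for assembly, and deposited FPKM per gene and library and a table of gene positions and lengths, whose values are other than measurements. The reference is from another species, so that diverged genes can lose reads. Assembly version, counting program and strand handling are not given in the sources used here. Columns were assigned to lines by the letters A and B as the study defines them, and green columns were not matched to single samples.

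Differences (russet minus green) were fitted with limma (version 3.58.1, R 4.3.3, moderated with an intensity trend) to log2(FPKM + 0.1) of the 30161 genes averaging 0.1 FPKM or more. Tests were two-sided with a Benjamini-Hochberg adjusted p under 0.05, and p-values measure the spread between pooled fruit samples. This scale understates changes of scarce genes. FPKM times gene length gave whole reads within 0.0001 for 74.5% of all values above 0 and for all 23 such values of the members. Intervals on reads cover counting error only. Python 3.11.15, numpy 2.4.6, pandas 2.3.3, scipy 1.17.1 and matplotlib 3.10.9 served for tables and figures. The fit was also run on simulated data with the same setting of spread for every gene, and no result here rests on it.

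No label pairs the libraries of the lines, and pairing them by number rests on the data alone. Deviations from the line means correlated across genes at 0.195 (A1 with B1), 0.211 (A2 with B2) and 0.323 (A3 with B3). Libraries of unlike number correlated at -0.235 (A3 with B1) to 0.0436 (A2 with B1). Alternatives were other pseudocounts, filters, scalings and limma settings, limma voom on recovered reads, each library left out, and the pairing. The members and lists were chosen with earlier results of these data known. Genes named were the members, those next to them, the 5 most like *GLP1-17*, and list genes with a name in the study's tables. Further GLP family members, peroxide enzymes and other jasmonate genes were not analysed here, since no descriptions were at hand. No sequences are shown. Gene 103941351, its scaffold, the summed pair and 103957865 were added after values were seen. Protein measurements were not analysed here.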

Additional observations from a re-analysis of the deposited data

How the results depend on the processing

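*GLP1-17* was called under all 11 alternatives with all libraries (log2 difference 5.71 to 6.22), the summed pair added after the data were seen included (5.98), and without each library in turn (5.79 to 6.41). *GLP1-11* was called with the replicate block (1.92, adjusted p = 0.0299, limma) and without A1, and its log2 difference was 1.59 to 2.48 with 1 library left out. Hence 2 *GLP* genes were called with the replicate block, and 1 to 2 with 1 library left out. *GLP1-13* and *GLP3-2*, never called, changed sign, with -0.086 to 0.64 for *GLP1-13* (negative without B3) and -0.22 to 0.62 for *GLP3-2* (negative without A3, and at -0.21 without B1). With a mean of at least 1 FPKM required, *GLP1-11* and *GLP1-13* could not be tested. Over all genes, 4625 were called, with 3574 to 6038 under the other settings and 3162 to 3600 with 1 library left out. The call of the first JAR1 gene was also lost with median-ratio scaling (adjusted p = 0.0583) and without the limma trend (adjusted p = 0.0718). The replicate block changed no other call among the 4 genes. The log2 difference of *GLP1-17* exceeded that of *GLP1-11* by 3.32 to 4.82 with 1 library left out. Of the 4 genes, *GLP1-11* rested on the fewest reads, with 55 in all. Its russet libraries also differed beyond counting error, since the 95% counting interval of A1 lay below those of A2 and A3. Whether depth or this spread kept the gene from passing was not tested. The count over further *GLP* family members was not run.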
